A study of Brassica rapa subsp. pekinensis with 2 samples.

Results

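Spliced intergenic transcripts are RNAs that the authors' assembly placed between the annotated genes of Chinese cabbage (Brassica rapa subsp. pekinensis) and joined from at least 2 exons. They were chosen from the table of linear transcripts as those of class code u, the assembler's code for a transcript that touches no reference gene, with 2 or more exons and a spliced length of at least 200 nt, outside a 500 kb region of chromosome A06 that starts at 15 Mb (genome Brassica rapa v3.0, the build of all coordinates here). The rule found 1850 members among 50834 transcripts, of which 3276 were of class u in all. No spliced class u transcript was shorter than 200 nt, so the length limit removed none, and 6 lay in the A06 region and were left out. The 3 shortest members, just inside the limit, were MSTRG.25790.1, MSTRG.7765.1 and MSTRG.18895.1 at 201, 203 and 205 nt.

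The study set out to describe the RNAs of anther development by sequencing ribosome-depleted total RNA of the double haploid line 'FT'. Ant was a library of anthers of mixed stages, stripped from flower buds of different sizes on flowering plants, and Mix was a library of whole seedlings with 4 true leaves (root, stem and leaf). GEO's labels state a cold treatment of the seeds (vernalization) for both samples, whereas the study's methods state it for Ant, so organ, plant age and possibly vernalization cannot be told apart. Each group held 1 library, so no difference had a replicate behind it, no test was run, and every value below compares 2 libraries.

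Intergenic transcripts of this kind are the usual starting set for long non-coding RNAs, RNAs that are not translated and of which some act on the expression of genes near them or far away. Splicing removes introns between exons, and an exon junction gives an assembled transcript its strand and separates it from stray single blocks of reads. Anthers hold the tapetum, which feeds the developing pollen, and the pollen itself, and flowering plants are known to make many RNAs in male reproductive organs that are scarce elsewhere. Coding potential was not assessed here, so a member may also be an unannotated gene for a protein or a piece of a neighbouring gene's untranslated region. The study screened for coding potential with the tools CNCI, CPC and Pfam before it called transcripts long non-coding RNAs. That screen was not applied to the members as a set here.

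The study designed primers to check 3 of the members by quantitative PCR, and these are the sequences of the members that its files supply. They are shown because they say which members the study measured by a second method. They were not placed on a genome here, and 2 of the 3 loci hold several members, so which isoforms they amplify was not tested. They are written 5′ to 3′ in lower case, since no part of them was set apart.
MSTRG.26417.1 forward: atttacctttgtcttctcgcctt
MSTRG.26417.1 reverse: tctcttgaaactttactatgggctt
MSTRG.28438.1 forward: atccatagccgttgtgttagaga
MSTRG.28438.1 reverse: aagtttatcgttgaccgtagtgg
MSTRG.18408.1 forward: caaccttgcgaacaatagaaaca
MSTRG.18408.1 reverse: aaccattgtccttctcagttgct

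All 3 primer targets stood higher in Ant. MSTRG.18408.1, a transcript of 7 exons and 1179 nt on the minus strand of A06 (28228286 to 28231741), was at 34.9 FPKM in Ant and 1.96 FPKM in Mix, 17.8-fold higher in Ant. FPKM is a count of sequenced fragments scaled for the length of the transcript and for the total of the library, so it is a level per length. MSTRG.26417.1 had 4 exons and 2211 nt on the minus strand of A09 (31753515 to 31756129) and was at 18.3 FPKM in Ant and 0.434 FPKM in Mix, 42.1-fold higher. MSTRG.28438.1 had 4 exons and 1058 nt on the plus strand of A10 (1829398 to 1831150) and was at 10.9 FPKM in Ant and 1.50 FPKM in Mix, 7.30-fold higher. They lay at different distances from annotated genes. MSTRG.18408.1 lay 1 base from the downstream end of BraA06g043200.3C, described as a putative E3 ubiquitin ligase RING1a, on the other strand, and its span also overlapped an assembled transcript that was no member. MSTRG.28438.1 lay 636 bases downstream of BraA10g003530.3C, a putative BPI/LBP family protein, and MSTRG.26417.1 lay 11789 bases upstream of BraA09g040670.3C, a probable protein phosphatase 2C.

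The table summed to 216371346 estimated counts in Ant and 190816341 in Mix. The A06 region outside the member set held 2.07% of the counts in Ant and 56.2% in Mix. Recomputing FPKM on totals without that region divides every Ant over Mix fold by 1.83. The tissue labels were checked against reference transcripts: 23 of 24 chlorophyll a-b binding protein transcripts, all that reached 1 FPKM in Ant or Mix, were lower in Ant (summed FPKM 21.3 in Ant and 10374 in Mix), the 10 CASP transcripts of the root barrier summed to 0 FPKM in Ant and 23.5 FPKM in Mix, and all 4 polcalcins, calcium-binding pollen proteins, were higher in Ant (summed FPKM 705 in Ant and 0.132 in Mix). All 7 transcripts described as anther-specific were higher in Ant (summed FPKM 939 in Ant and 0.196 in Mix). So were the study's 6 anther-predominant genes, which it chose on these libraries. Of 28 transcripts described as pollen-specific, 25 reached 1 FPKM in Ant or Mix, with 16 higher in Ant and 4 lower. None of 4 pollen allergen transcripts reached 1 FPKM in Ant or Mix. Members overlapping each other or another transcript are uncertain, since the strand setting of the counting was not stated; 134 members overlapped a member on the other strand and 180 overlapped a transcript that was no member.

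Spliced intergenic transcripts mostly stood higher in the anther library. In whole organs, fewer cells of a type and less RNA per cell cannot be told apart. The median member was at 3.60 FPKM in Ant (95% interval over transcripts 3.39 to 3.80) and 0.0136 FPKM in Mix (0 to 0.0423). Quartiles ran from 1.89 to 9.65 FPKM in Ant and from 0 to 1.15 FPKM in Mix. A level of at least 1 FPKM was reached by 1737 members in Ant and 492 in Mix, a level of at least 100 FPKM by 133 and 9, and a level of at least 1000 FPKM by 19 and 0. The highest member was at 7141 FPKM in Ant, whereas the highest in Mix was at 766 FPKM.

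**Figure D1:**
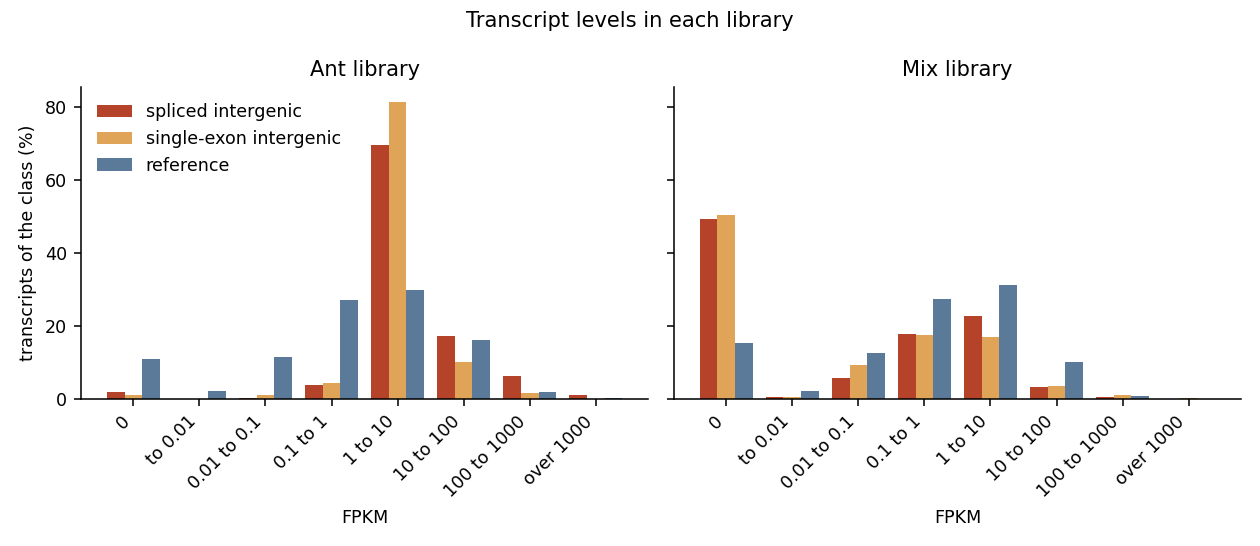
Levels of spliced intergenic, single-exon intergenic and reference transcripts in the Ant (left) and Mix (right) libraries. Each bar is the percent of the class in a range of FPKM, and bars of the spliced intergenic class stand at 69.6% for 1 to 10 FPKM in Ant and at 49.3% for FPKM 0 in Mix.

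A transcript was read as detected above a floor of 6 estimated counts, which at the members' median length was 0.0341 FPKM in Ant and 0.0343 FPKM in Mix. These near-equal floors do not mean equal depth. Outside the A06 region the table held 211891156 counts in Ant and 83613650 in Mix, so less depth was left for other transcripts in Mix. Above the floor in Ant and not in Mix were 952 members (51.5%; 95% Clopper-Pearson interval 49.2 to 53.8%, for counting error only), above it in both were 862 (46.6%), and above it in Mix and not in Ant were 36 (1.95%). Over all transcripts 19.1% were above the floor in Ant and not in Mix, and 8.25% in Mix and not in Ant. Counting those under it in both, the share of all transcripts at or under the floor in Mix was 22.6% and in Ant 11.7%. Among single-exon intergenic transcripts 56.1% were above the floor in Ant and not in Mix, and among reference transcripts 16.5%. No member was at or under the floor in both libraries, against 5.09% of reference transcripts: an assembled transcript enters the table through reads of 1 or both libraries, whereas an annotated one is listed regardless, and the part of this in the shares was not tested. Estimated counts of the members were 11952570 in Ant and 2767830 in Mix. Outside the A06 region they made up 5.64% of all counts in Ant and 3.31% in Mix, but the Mix share rested on few transcripts, and without the 3 with the most counts in each library the shares were 5.07% in Ant and 1.52% in Mix. Single-exon intergenic transcripts went the other way, with 1.65% of the counts outside the A06 region in Ant and 3.79% in Mix.

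For the comparison, log2((FPKM Ant + 1)/(FPKM Mix + 1)) was taken over the 1827 members that reached 1 FPKM in Ant or Mix, and a ratio above 1 or below -1 was called higher or lower in Ant. Higher in Ant were 1430 members (78.3%), lower were 105 (5.75%) and between the cutoffs were 292. A member could pass through Ant alone: 1737 reached 1 FPKM in Ant and 492 in Mix, and 937 of the 1430 were at or under the floor in Mix. How far this filter and the entry through the assembly set the shares was not tested. The background was 50.2% higher and 16.8% lower over all 36009 transcripts that passed the same filter. Reference transcripts were 41.0% higher and 21.7% lower, and single-exon intergenic transcripts 73.4% higher and 7.89% lower, so the single-exon class stood close to the members. The median log2 ratio of the members was 1.73 (95% interval 1.67 to 1.78), of all transcripts 1.01, of single-exon intergenic transcripts 1.32 and of reference transcripts 0.62.

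The counts of calls depended on the scaling, for the members as for the table as a whole. Where a transcript reached 1 FPKM in Ant and also in Mix, the median log2 ratio over all classes was 0.54 (17562 transcripts). With ratios centred on that median, 1060 members (58.0%) were higher and 144 (7.88%) lower, beside 34.5% higher and 23.6% lower of all transcripts. Of called members, 93.2% were higher as deposited and 88.0% after centring, whereas of all called transcripts 74.9% were higher as deposited and 59.3% after centring. On totals without the A06 region the shares were 71.8% higher and 8.76% lower among members, beside 39.6% and 26.0% of all transcripts. Among the 402 members measured at this level in both, the median log2 ratio was 0.73, beside that 0.54.

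**Figure D2:**
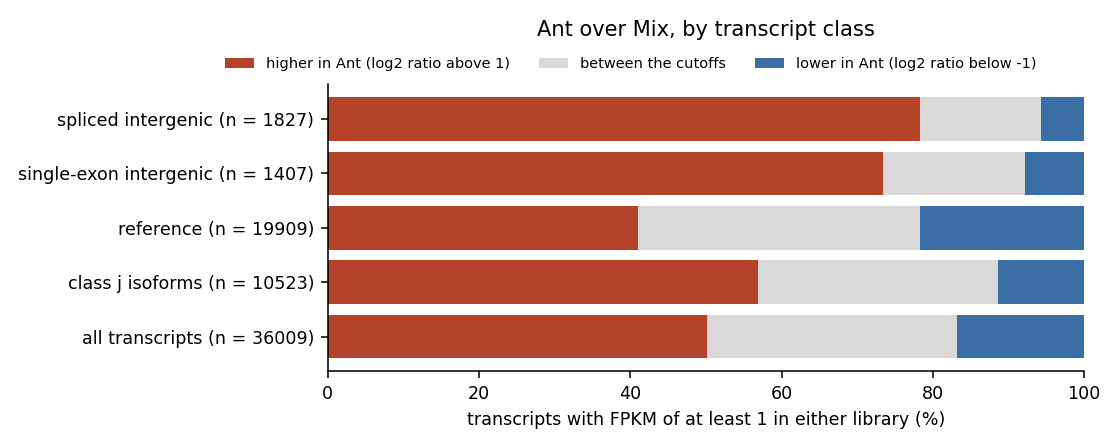
Percent of transcripts called higher in Ant, between the cutoffs and lower in Ant, by class, over transcripts that reached 1 FPKM in Ant or Mix (n beside each class). Spliced intergenic transcripts, at the top, were 78.3% higher and 5.75% lower, beside 50.2% and 16.8% of all transcripts (class j marks new isoforms of annotated genes).

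The strongest anther signals came from short members of 2 exons with nothing measured in Mix. MSTRG.13514.1, 328 nt on the minus strand of A05 (7200624 to 7201218), was at 7141 FPKM in Ant and 0 FPKM in Mix. Its 543362 estimated counts in Ant were at least 90053-fold above the floor in Mix, and at least 49151-fold on totals without the A06 region. MSTRG.9161.1 had 429 nt on the minus strand of A03 (21894470 to 21895672) and was at 3268 FPKM in Ant and 0 FPKM in Mix. Both MSTRG.13514.1 and MSTRG.9161.1 overlapped a member on the other strand, so how reads were divided there is uncertain. These 2 were followed by MSTRG.11167.1 of A04 (9001807 to 9002419) at 2966 FPKM in Ant and 0 FPKM in Mix, and MSTRG.6689.1 of A03 (4005324 to 4005971) at 2780 FPKM in Ant and 0 FPKM in Mix. They lie on different chromosomes, and both are minus-strand transcripts of 2 exons, of 487 and 522 nt, with the same intron length of 126 bases. MSTRG.4678.1 of A02 (14121918 to 14135518) was at 2266 FPKM in Ant and 0 FPKM in Mix, and joined 214 nt of exon across 13387 bases of intron. Among the 6 highest only MSTRG.28599.1 of A10 (3398627 to 3398995, 224 nt) was read in Mix, at 2417 FPKM in Ant and 179 FPKM in Mix, 13.5-fold higher in Ant.

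The study's text names 17 of the members, from 11 loci, as long non-coding RNAs, counting each member where it gives a locus alone. It chose them on these libraries, so their direction is no independent evidence. All 17 were higher in Ant, 15 of them with no estimated count in Mix, and their levels in Ant ran from 1.59 FPKM through a median of 5.35 FPKM to the 3268 FPKM of MSTRG.9161.1. MSTRG.14213.1, 2 exons and 474 nt on the minus strand of A05 (19506916 to 19510426), was at 316 FPKM in Ant and 0 FPKM in Mix, while the nearest reference transcript, BraA05g025850.3C at 577 bases, was at 4.60 FPKM in Ant and 4.79 FPKM in Mix. MSTRG.21171.1 and MSTRG.21171.2, of 700 nt on A07 (27319262 to 27322927), were at 190 and 158 FPKM in Ant and at 0 FPKM in Mix. The 5 members of MSTRG.11029 on A04 (6471659 to 6483281) had 5 to 8 exons and ran from 1.59 to 5.35 FPKM in Ant, each at 0 FPKM in Mix, and MSTRG.11029.5 fell under the cutoff after centring, to a log2 ratio of 0.83. The 2 read in Mix were MSTRG.19265.1, at 4.36 FPKM in Ant and 0.416 FPKM in Mix, and MSTRG.11253.1, at 5.84 FPKM in Ant and 0.0550 FPKM in Mix.

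The 133 members with at least 100 FPKM in Ant came from 102 loci, and 21 of them lay in a stretch of A05 described further on. They were picked on their level in Ant, so their direction is no separate result: 131 were higher in Ant and none was lower. At or under the floor in Mix were 115 (86.5%). The same share among the 737 reference transcripts at this level was 42.7%. Members reached this level in 7.19% of cases, reference transcripts in 2.15% and single-exon intergenic transcripts in 1.70%. These sets are unlike, since 98.8% of members but 58.2% of reference transcripts reached 1 FPKM in Ant or Mix. The 133 members were short, with a median spliced length of 470 nt and 124 under 1000 nt, and 103 of them (77.4%) had 2 exons. The minus strand held 928 of all 1850 members and 82 of these 133 (61.7%), and 18 of the 19 members with at least 1000 FPKM, which came from 15 loci. Among reference transcripts with at least 1000 FPKM in Ant 55.4% were on the minus strand. The neighbours of the 6 highest members were not at a comparable level. Their nearest reference transcripts were at most at 29.3 FPKM in Ant, reached by BraA02g023940.3C, a protein of vacuolar sorting 58862 bases from MSTRG.4678.1, and the one nearest to MSTRG.28599.1 was listed at 0 FPKM.

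**Figure D3:**
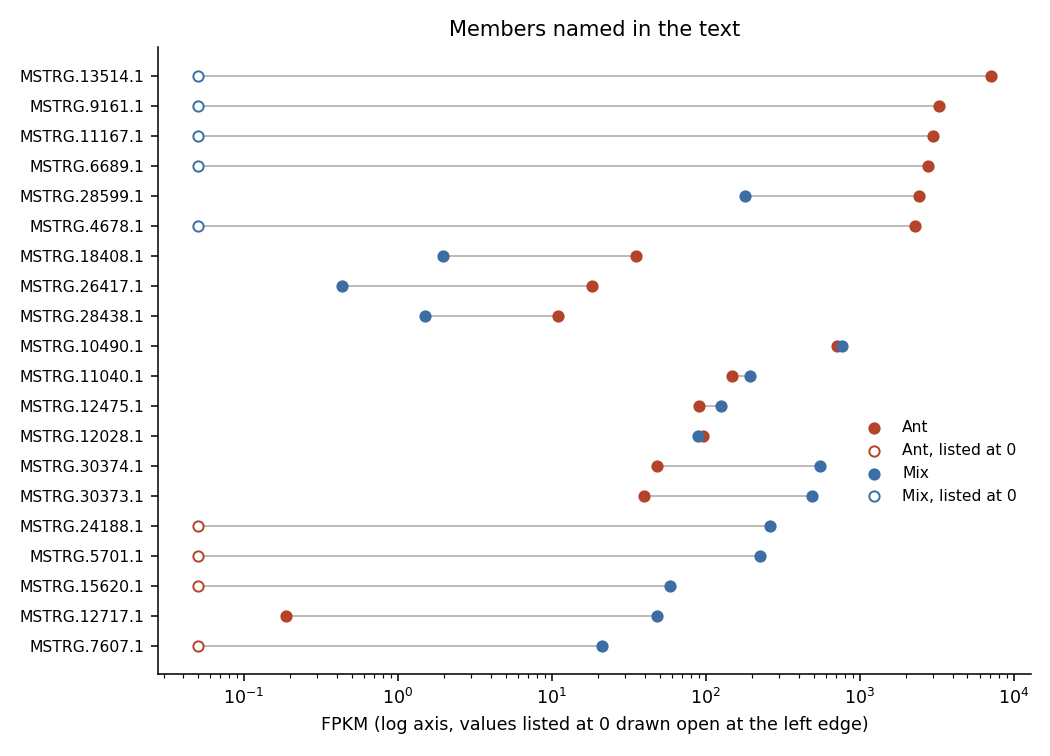
FPKM of 20 members in Ant and Mix, on a log axis, with values listed at 0 drawn as open circles at the left edge. From the top come the 6 highest in Ant, the 3 with primers, 4 with similar levels in both libraries, the pair highest in Mix apart from those, and the 5 with the lowest log2 ratios.

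Few members stood higher in Mix. The 105 lower in Ant had a median of 0.483 FPKM in Ant and 4.77 FPKM in Mix, and 26 of them reached 10 FPKM in Mix. MSTRG.24188.1, 2 exons and 290 nt on the minus strand of A09 (3137998 to 3139257), was at 0 FPKM in Ant and 261 FPKM in Mix, at least 2926-fold lower in Ant. MSTRG.5701.1 of A02 (28441944 to 28443229), 2 exons and 302 nt, was at 0 FPKM in Ant and 224 FPKM in Mix. The total introns of these 2, at 970 and 984 bases, and their lengths were close. MSTRG.15620.1 of A06 (1528001 to 1528901) was at 0 FPKM in Ant and 58.3 FPKM in Mix, MSTRG.12717.1 of A05 (1059783 to 1061399) at 0.186 FPKM in Ant and 47.9 FPKM in Mix, and MSTRG.7607.1 of A03 (10516756 to 10518043) at 0 FPKM in Ant and 21.2 FPKM in Mix. Of their 5 nearest reference transcripts 1 followed them. BraA02g040990.3C, a calmodulin-binding protein 60 G-like gene 9822 bases from MSTRG.5701.1, was at 0.944 FPKM in Ant and 6.02 FPKM in Mix. The others did not: BraA05g001820.3C, an RF2b-like transcription factor gene 2432 bases from MSTRG.12717.1, was at 18.3 FPKM in Ant and 2.67 FPKM in Mix, and BraA03g021930.3C, which encodes the microtubule-nucleating AUGMIN subunit 1, 695 bases from MSTRG.7607.1, was at 17.6 FPKM in Ant and 3.77 FPKM in Mix. The neighbours of MSTRG.15620.1 and MSTRG.24188.1 were below 1 FPKM in Ant and Mix.

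Most of the members' counts in Mix came from 2 places. On A10, MSTRG.30373.1 on the plus strand and MSTRG.30374.1 on the minus strand had the same start and end (20177434 to 20182857). MSTRG.30373.1 had 4691 nt and was at 39.6 FPKM in Ant and 486 FPKM in Mix, 12.3-fold lower in Ant. MSTRG.30374.1 had 5380 nt and was at 48.0 FPKM in Ant and 551 FPKM in Mix, 11.5-fold lower in Ant. The pair covers the same bases, and since the strand setting of the counting was not stated, how the reads were divided between them is uncertain. On A04, the plus-strand MSTRG.10490.1 (285763 to 288747) was at 707 FPKM in Ant and 766 FPKM in Mix and was the highest member in Mix. It overlapped the minus-strand MSTRG.10491.1 and MSTRG.10491.2, so the division of reads is uncertain there too. MSTRG.30373.1, MSTRG.30374.1 and MSTRG.10490.1 held 54.1% of the members' counts in Mix.

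The first 500 kb of A04 held 10 members, among them 6 of the 11 members of 5000 nt or more. MSTRG.10488.1, the longest member at 18325 nt, had 2 exons and only 58 bases of intron (313545 to 331927) and was at 0 FPKM in Ant and 1.48 FPKM in Mix. Its locus also held MSTRG.10488.3, 17946 nt with 29 bases of intron, at 6.57 FPKM in Ant and 0.312 FPKM in Mix, so overlapping isoforms were called in opposite directions. MSTRG.10488.2, of 18237 nt, was at 0 FPKM in Ant and 0.0267 FPKM in Mix. The nearest reference transcript, BraA04g000430.3C, is described as the mitochondrial NADH dehydrogenase subunit 7. The 10 members took 4.21% of the members' counts in Ant and 20.5% in Mix. The sequence of these members was not analysed here, and whether near-identical copies share their reads was not tested.

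Some members were abundant in both libraries. At least 10 FPKM in each was measured for 43 members. Besides MSTRG.10490.1, the highest geometric means between the cutoffs belonged to 3 other transcripts of A04. MSTRG.11040.1 (6823645 to 6825887) was at 147 FPKM in Ant and 193 FPKM in Mix, MSTRG.12475.1 (21313089 to 21315459) at 90.4 FPKM in Ant and 126 FPKM in Mix, and MSTRG.12028.1 (17862384 to 17863781) at 95.6 FPKM in Ant and 88.9 FPKM in Mix. For 3 of the 4 a scaling ended their place between the cutoffs. On totals without the A06 region MSTRG.11040.1 had a log2 ratio of -1.26 and MSTRG.12475.1 of -1.34, and MSTRG.10490.1 reached -1.13 with both libraries scaled to the same FPKM sum. MSTRG.12028.1 stayed between them, at 0.10 as deposited and -0.76 on totals without the A06 region. MSTRG.10490.1 and MSTRG.11040.1 share an intron length of 1349 bases, as well as strand and exon number.

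In structure the members were short and of few exons. Exactly 2 exons were found in 952 (51.5%), 3 in 337, 4 in 169, 5 to 9 in 294 and 10 or more in 98. The median spliced length was 759 nt (95% interval 726 to 791), with quartiles of 482 and 1293 nt and a range from 201 to 18325 nt. Single-exon intergenic transcripts had a median of 516 nt. All reference transcripts, single-exon ones included, had 4 exons and 1038 nt at the median, and the 26516 spliced ones had 5 exons and 1128 nt. These are coding lengths, since every reference length was a multiple of 3 and these models hold no untranslated regions. The introns of a member summed to a median of 486 bases (461 to 517) and ranged from 20 to 44370 bases. In 547 members (29.6%) the intron total exceeded the spliced length, in 55 the mean intron was over 5000 bases and in 20 it was under 60 bases.

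Levels changed with exon number. Members of 2 exons had medians of 3.28 FPKM in Ant and 0 FPKM in Mix, and those of 10 or more exons 6.86 FPKM in Ant and 1.89 FPKM in Mix. The share at or under the floor in Mix was 64.0% with 2 exons, 54.6% with 3, 40.8% with 4, 25.5% with 5 to 9 and 15.3% with 10 or more. Higher in Ant were 81.6% with 2 exons and 67.3% with 10 or more. Length went the same way. At or under the floor in Mix were 68.8% of members under 500 nt and 23.0% of those of 2000 nt or more, and higher in Ant were 83.2% and 66.5%. The parts of exon number and length were not separated, and a fixed floor in counts is a higher FPKM in a shorter transcript (0.130 FPKM in Mix at 200 nt). Of the 133 members with at least 100 FPKM in Ant, 74 were under 500 nt, 50 from 500 to under 1000 nt, 9 from 1000 to under 2000 nt and none longer.

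**Figure D4:**
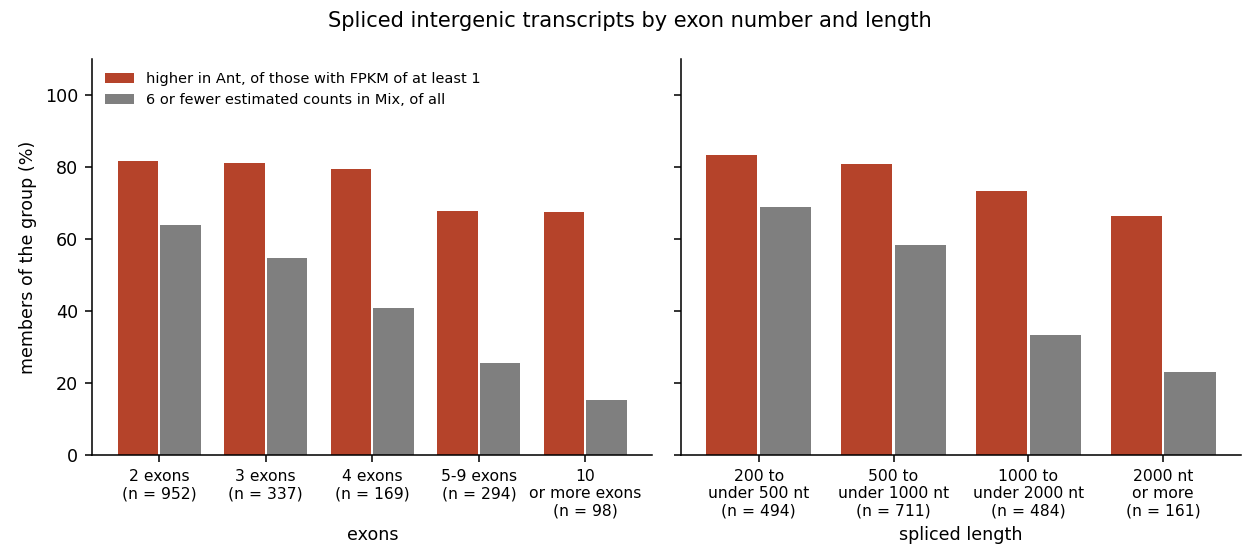
Percent of members higher in Ant (of those that reached 1 FPKM in Ant or Mix) and percent with 6 or fewer estimated counts in Mix (of all), by exon number (left) and spliced length (right), with n for each group. The share with 6 or fewer counts in Mix was 64.0% with 2 exons and 15.3% with 10 or more, whereas the share higher in Ant was 81.6% and 67.3%.

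The members of most exons were measured in both libraries. MSTRG.8141.1 of A03 (14568599 to 14576161) had 27 exons and 4291 nt and was at 13.8 FPKM in Ant and 8.77 FPKM in Mix, and its isoform MSTRG.8141.2, with 26 exons, was at 21.3 FPKM in Ant and 7.78 FPKM in Mix. MSTRG.9599.1 of A03 (25393709 to 25400246) had 25 exons and was at 14.7 FPKM in Ant and 3.95 FPKM in Mix. These ratios were not stable against scaling: without the A06 region the log2 ratio of MSTRG.8141.1 was -0.21 in place of 0.60, that of MSTRG.8141.2 was 0.55 in place of 1.35 and that of MSTRG.9599.1 was 0.93 in place of 1.66. At the other end, MSTRG.25790.1, the shortest member, was at 83.8 FPKM in Ant and 0 FPKM in Mix, MSTRG.7765.1 at 61.0 FPKM in Ant and 4.77 FPKM in Mix, and MSTRG.18895.1 at 1.96 FPKM in Ant and 0 FPKM in Mix.

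Intron length showed no steady trend with the level in Mix. At or under the floor in Mix were 54.2% of members with under 100 bases of intron, 56.0% from 100 to under 500, 35.7% from 500 to under 1000, 52.8% from 1000 to under 5000 and 76.7% of the 86 members with 5000 or more, of which 86.0% were higher in Ant. A stretch of A05 described further on held 17 of these 86, all at or under the floor in Mix, and without them, an alternative added after seeing the data, the share was 71.0%. The longest was in MSTRG.13503.1 of A05, which joined 285 nt of exon across 44370 bases and was at 35.6 FPKM in Ant and 0 FPKM in Mix. The span of MSTRG.13503.1 overlapped a member on the other strand and a transcript that was no member, so its level is uncertain. MSTRG.28717.1 of A10 (6646183 to 6678668) joined 262 nt across 32224 bases and was at 1.60 FPKM in Ant and 0 FPKM in Mix. MSTRG.10384.3 of A03 (34953105 to 34983355) had 8 exons, 27233 bases of intron, and 6.35 FPKM in Ant and 0.113 FPKM in Mix. It lay 5 bases from BraA03g062800.3C and its span also overlapped a transcript that was no member.

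The members lay between genes on all 10 chromosomes. The median gap to the nearest reference transcript was 2115 bases (95% interval 1920 to 2308), against 2897 bases for single-exon intergenic transcripts and 1304 bases between reference transcripts. None overlapped a reference span. A gap under 500 bases was found for 338 members and one of 10000 bases or more for 221. Members far from genes were less often read in Mix: 64.3% of those at 10000 bases or more were at or under the floor in Mix, against 39.6% of those under 500 bases, and among those that passed the filter 85.6% were higher in Ant, against 70.7%. Gaps run to the ends of coding models, so an untranslated region that the annotation lacks would lie inside the shortest ones, and how many members were such pieces was not tested. The share also fell with gene density: 88.2% were higher in Ant where fewer than 10 reference transcripts started in the surrounding 200 kb, 80.4% at 10 to 29 and 71.8% at 30 or more.

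Counts per chromosome ran from 116 on A10 to 312 on A09. Per 1000 reference transcripts, A06 had the fewest members at 43.3 and A05 the most at 66.0. The share higher in Ant ran from 69.0% on A06 to 82.4% on A08, so no chromosome was near the 50.2% of all transcripts. The most isolated member was MSTRG.28716.1 of A10 (6637643 to 6640797), 121848 bases from any reference transcript, at 1.52 FPKM in Ant and 0 FPKM in Mix. MSTRG.18876.1 of A07 (4903024 to 4909356) lay 102984 bases away and was at 1.69 FPKM in Ant and 0 FPKM in Mix, and MSTRG.5020.1 of A02 (19411382 to 19416761) lay 91831 bases away and was at 2.85 FPKM in Ant and 0.235 FPKM in Mix. Both MSTRG.28716.1 and MSTRG.18876.1, with log2 ratios of 1.33 and 1.43, fell under the cutoff once ratios were centred on the median transcript.

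The members lay on either side and strand of the nearest reference transcript, with 540 members upstream on the same strand, 485 upstream on the opposite strand, 427 downstream on the same strand and 398 downstream on the opposite strand. The upstream, opposite-strand members, those that point away from the gene, were at or under the floor in Mix in 62.1% of cases and higher in Ant in 84.3% of those that passed. The downstream, same-strand members were so in 44.3% and 72.9%. Over all distances, with neighbours that did not pass the filter counted in, the state of the neighbour varied little with the state of the member. Of the 1430 members higher in Ant, 23.4% had a nearest reference transcript that was higher in Ant and 11.0% one that was lower. For 43.8% of them the neighbour did not pass the filter. Of the 105 members lower in Ant, 21.0% had a neighbour that was higher and 8.57% one that was lower. Over all members the shares were close to these, at 23.2% and 10.6%.

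The 1850 members came from 1517 assembled loci, of which 1301 held 1 member. Among the 216 loci with several, all members were higher in Ant in 168. Members of a locus share exons, and their levels are estimates of how shared reads divide, so they are not independent. MSTRG.20582 of A07 (23300956 to 23304333, plus strand) had 7 members of 2 to 4 exons at 1.14 to 17.7 FPKM in Ant, and in Mix only MSTRG.20582.4 was above 0, at 0.243 FPKM. MSTRG.15266 of A05 (27329739 to 27335249, minus strand) had 7 members of 7 to 11 exons at 5.26 to 10.8 FPKM in Ant and 0 to 1.01 FPKM in Mix. Both loci were thus higher in Ant in each member, although MSTRG.20582.6, with a log2 ratio of 1.10, fell to 0.56 after centring. The gene nearest to MSTRG.15266, 602 bases away on the same strand, was BraA05g040250.3C, a probable transcription factor, at 36.7 FPKM in Ant and 11.2 FPKM in Mix.

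In 4 loci, named after their values were seen, 1 member was higher in Ant and another lower. Besides MSTRG.10488, these were MSTRG.23649, MSTRG.24799 and MSTRG.25035. At MSTRG.23649 of A08, MSTRG.23649.2 was at 4.71 FPKM in Ant and 0.874 FPKM in Mix while MSTRG.23649.1, also of 15 exons, was at 1.39 FPKM in Ant and 6.79 FPKM in Mix. At MSTRG.24799 of A09, the 3-exon MSTRG.24799.2 was at 2.0 FPKM in Ant and 0 FPKM in Mix while the 2-exon MSTRG.24799.1 was at 1.29 FPKM in Ant and 10.7 FPKM in Mix. At MSTRG.25035 of A09, MSTRG.25035.2 was at 6.26 FPKM in Ant and 2.56 FPKM in Mix while MSTRG.25035.1 was at 0.501 FPKM in Ant and 5.45 FPKM in Mix. MSTRG.25035.2 had a log2 ratio of 1.03, which fell to 0.49 after centring and 0.35 on totals without the A06 region, so the opposite calls of that locus ended under these scalings, whereas those of the other loci held. Another 4 loci, MSTRG.10491, MSTRG.16460, MSTRG.23215 and MSTRG.24539, had both members lower in Ant, of which the highest in Mix was MSTRG.10491.2 at 42.5 FPKM in Ant and 105 FPKM in Mix.

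The densest region, singled out after its values were seen, was a stretch of A05 from 7000001 to 7500000. It held 38 members of 18 loci, against a median of 3 members over the 523 bins of 500 kb with any member and 13 in the next fullest bin. Of the 38, 36 were higher in Ant, 36 were at or under the floor in Mix and 21 reached 100 FPKM in Ant. They carried 14.1% of the members' counts in Ant and 0.0495% in Mix. Reference transcripts of the same stretch were less one-sided: of 41, 11 were at or under the floor in Mix and 20 passed the filter. Of these 20, 6 were higher in Ant and 3 lower. The highest in Ant was at 99.7 FPKM in Ant and 0.856 FPKM in Mix.

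Within that stretch 35 of the 38 members lay in 3 groups. The other 3 were at 0.917 to 4.69 FPKM in Ant, and 2 of them, MSTRG.13490.1 and MSTRG.13496.1, were the ones read in Mix, at 3.84 and 1.39 FPKM. The first, from 7156278 to 7201218, held 20 members of 11 loci in 44.9 kb with no reference transcript among them. All 20 were listed at 0 FPKM in Mix, and in Ant they ran from 16.4 FPKM through a median of 365 FPKM to the 7141 FPKM of MSTRG.13514.1. Here 15 of the 20 were on the minus strand, among them MSTRG.13504.4 at 1373 FPKM and MSTRG.13507.1 at 1095 FPKM in Ant, both at 0 FPKM in Mix. The second group, from 7236963 to 7244479, held 8 members at 8.35 to 436 FPKM in Ant. The third, from 7467678 to 7479859, held 7 members, all on the plus strand, at 40.6 to 478 FPKM in Ant. No member of these groups had an estimated count in Mix.

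**Figure D5:**
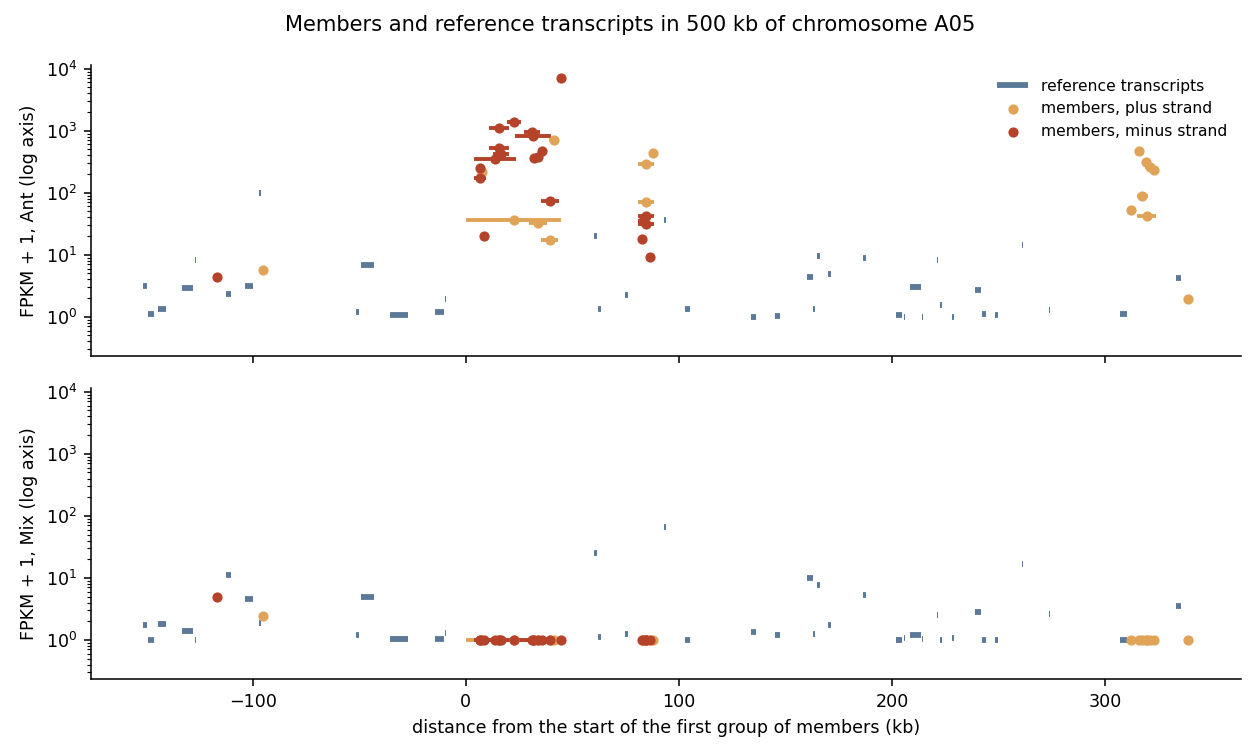
Members (points at the middle of a transcript, bars over its span) and reference transcripts (blue bars) in the 500 kb stretch of A05, by distance from the start of the first group and by FPKM + 1 on a log axis, in Ant (top) and Mix (bottom). The first group's 20 members stand between 16.4 and 7141 FPKM in Ant and all at 0 FPKM in Mix.

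In a few loci of several members, picked after their values were seen, some edges were spaced alike. In MSTRG.13536 the left edges lay at 7471246, 7474867 and 7478479, at steps of 3621 and 3612 bases, and the right edges at steps of 3530, 3632 and 178 bases. MSTRG.13512.1 and MSTRG.13512.3 had 382 nt and 269 bases of intron each, at 357 and 462 FPKM in Ant, and both edges of one lay 3683 bases from those of the other. MSTRG.13512.2, also of 382 nt, ran from the left edge of MSTRG.13512.1 to the right edge of MSTRG.13512.3, at 373 FPKM in Ant. At MSTRG.20357 of A07 (21481632 to 21490704), one of 3 loci with 6 members and the one of these with the highest summed FPKM in Ant, the left edges lay at steps of 2673 and 2624 bases and the right edges at steps of 5103, 2616 and 100 bases. Its 6 members were at 183 to 842 FPKM in Ant, and each was at 0 FPKM in Mix. Whether these stretches hold near-identical copies that share reads was not tested, since member sequences were not analysed here.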

How the data were processed

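The submitters' processing notes name HISAT2, StringTie and TopHat, and the study's methods name Cutadapt, Bowtie2, TopHat2, StringTie and Ballgown with the Brassica rapa v3.0 genome. The FPKM values were used as deposited by the authors. The study names both Ballgown and Cuffdiff as their source, so it is uncertain. The estimated counts deposited by the authors were proportional to FPKM times length and so derive from coverage. Their sums, 216371346 in Ant and 190816341 in Mix, exceed the reads, and a floor of 6 counts was therefore used, a choice made with values known. Where a library was not above the floor, folds were taken against the floor itself and are lower bounds. The library kit marks strand, but the strand setting of the counting is not given in the sources used here. The table held no column of the authors' comparisons and 0 columns of another sample. The circRNA table was not used here.

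Members, lists and cutoffs were chosen with earlier results of these data known. Ratios were log2 with a pseudocount of 1 FPKM, which shrinks the differences of low transcripts, over those that reached 1 FPKM in Ant or Mix and with a cutoff of 1. With 1 library a group no p-value was computed. Gaps are bases between spans, and total intron length is span minus spliced length. Intervals of medians are 95% order-statistic intervals over transcripts. They describe spread between transcripts, and isoforms of a locus enter them as if independent. The Clopper-Pearson interval and the floors cover counting error only, and PCR reads are not independent molecules. Transcripts named in the text were the 6 highest in each library, the 5 highest and 5 lowest ratios, the 4 highest geometric means between the cutoffs, those with the most exons, longest spliced length or introns, or shortest length, the 3 loci with most members, the 3 most isolated, and those with primers or named in the study's text, with others named as chosen after their values were seen. Python 3.11.15, numpy 2.4.6, pandas 2.3.3 and scipy 1.17.1 were used, and the functions were tested on simulated data. A total of 12 alternatives of the comparison were planned and 2 added after seeing the data. Member sequences were not analysed here.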

Additional observations from a re-analysis of the deposited data

How the results depend on the processing

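Beside 1430 members higher in Ant, 105 lower and a median log2 ratio of 1.73, the median was 4.04 with a pseudocount of 0.1 FPKM and 6.87 with 0.01 FPKM. With a filter of 5 FPKM, only 774 members were left, with 642 higher (82.9%), 50 lower (6.46%) and a median of 2.99. Scaling by the median transcript gave a median of 1.19. On totals without the A06 region 160 (8.76%) were lower, with a median of 1.61. With the same FPKM sum 180 (9.85%) were lower, with a median of 1.57. Of all transcripts 26.0% and 27.6% were lower under these scalings. The 889 members of 3 or more exons, a smaller set, gave 665 higher (74.8%), 57 lower (6.41%) and a median of 1.66. A cutoff of 2 gave 721 higher (39.5%) and 36 lower (1.97%) of 1827 members. With 1 transcript a locus the share at or under the floor in Mix was 47.0%, the median FPKM in Mix 0.0756 and the median intron total 457 bases. The median gap was 4660 bases to the same strand and 1681 bases to any transcript that was not of class u. No alternative reversed the median or a called member among the 71 named by rule, of which 11 crossed a cutoff under some alternative and 2 changed sign between the cutoffs. Without the A05 stretch 1394 of 1790 members (77.9%) were higher, beside 78.3% in the main setting. Without members that overlap another strand or a transcript that is no member, 1193 of 1536 (77.7%) were higher. Both alternatives were added after seeing the data.

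No paired analysis was possible because each group held 1 library. No replicate was left out. Motif searches at assembled starts were not run, since no genome of the build was used here. A member under the floor was not detectable at this depth rather than absent, and in Mix the A06 region lowered the depth left for all other transcripts.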
